A study of Saccharomyces cerevisiae with 22 samples.

Results

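HSP42 (YDR171W, chromosome IV) and HSP26 (YBR072W, chromosome II) encode the small heat-shock proteins of budding yeast. They were taken from the array annotation by symbol, which gave 2 genes of the 6373 yeast features on the array, each with 1 probe printed as 2 spots. Small heat-shock proteins bind unfolding proteins without using ATP and hold them in a form that can later be refolded. Hsp42 collects misfolded proteins into deposits in the cytosol already at normal growth temperature. Hsp26 is activated by heat and is co-aggregated with its substrates, which the Hsp104 and Hsp70 machinery then releases. Heat-shock genes are served by the heat-shock factor Hsf1 and, in many cases, by Msn2 and Msn4, the activators of the general stress response, and HSP26 is a well-known gene of both routes.

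The series measured newly made RNA in Saccharomyces cerevisiae whose Hsf1 was carried out of the nucleus by anchor-away, in which rapamycin ties a protein with an FRB tag to a ribosomal protein with an FKBP12 tag. Both strains were of mating type alpha in the BY4742 background and carried tor1-1, a deletion of fpr1 and RPL13A-FKBP12. They also shared the markers NAT, MET15, his3-1, leu2, lys2 and ura3. The strain called Hsf1-aa carried Hsf1-FRB-yEGFP in addition, and WT-aa, which had no FRB tag on Hsf1, was the control for rapamycin itself. In the slow depletion, both strains were sampled at 0 min without rapamycin and after 15, 30, 60 and 90 min in 0.15 µM rapamycin, with 2 arrays for each of the 10 groups. In the standard depletion, 1 array per strain was taken after 30 min in 7.5 µM rapamycin. RNA made in the last 6 min before harvest was marked with 5 mM 4-thiouracil (4tU), a base that allows new RNA to be purified. The labels describe 1 strain per genotype, and how much Hsf1 left the nucleus is not measured on these arrays.

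Every value below is log2 of the sample over the reference RNA on the same array. The reference of the slow arrays was pooled 4tU RNA of 2 untreated WT-aa cultures, so 0 stands for the level of untreated control cells. Array a of each slow group carried the sample in Cy3 and array b carried it in Cy5. The series text describes the hybridised cultures as independent. A value is relative to the other genes of its array, so a change of total RNA synthesis per cell would not be seen.

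The marker probes were read against local background on the slow arrays. The alpha-cell genes MFALPHA1, MFALPHA2 and STE3 stood 511 to 1252, 255 to 563 and 128 to 300.3 times above it. Of the a-cell genes, MFA1 read 2.01 to 2.84, MFA2 1.72 to 2.22 and STE2 4.69 to 7.06 times background. Of the genes behind the strain's growth markers, LEU2 read 1.24 to 1.61, URA3 1.41 to 2.30, LYS2 2.06 to 4.55 and HIS3 5.50 to 14.4 times. The range of STE2 lies within that of HSP26 given below, and that of HIS3 overlaps it; what low signals of this size hold was not tested. HSF1 itself read lower in Hsf1-aa at all 5 times, including 0 min, where the strain difference was -2.17 on the log2 scale (SE 0.23, adjusted p = 9.71e-04). At 90 min it was -1.63 (adjusted p = 0.00125). The median sample signal was 863.5 to 1789 on the slow arrays, and the number of arrays limits the precision. HSP42 read 14.1 to 166 times above background in the sample channel of the slow arrays and HSP26 4.05 to 9.21 times. Both passed the detection filter on all 20 of them. So did 100% of the spots of LEU2, URA3, MFA1, MFA2 and STE2, so passing it says little about a signal as faint as that of HSP26.

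New HSP42 RNA was strongly reduced in Hsf1-aa cells after rapamycin. Against 0 min it stood at 0.11 on the log2 scale at 15 min (adjusted p = 0.741), fell by 1.40 by 30 min (adjusted p = 6.82e-05) and fell by 2.72 by 60 min (adjusted p = 2.04e-08). In WT-aa cells in the same rapamycin the differences from 0 min ran from -0.49 to 0.33, and none passed the test at a single time. At 90 min Hsf1-aa held 18.4% of the HSP42 level of WT-aa.

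On the individual arrays, HSP42 in Hsf1-aa read -0.18 and -0.05 at 0 min, and -0.05 and 0.03 at 15 min. It then read -1.57 and -1.46 at 30 min, -2.97 and -2.71 at 60 min, and -2.86 and -2.66 at 90 min. The arrays of each Hsf1-aa group lay close together, and those of 30, 60 and 90 min lay well below those of the earlier times. In WT-aa, HSP42 read 0.15 and -0.12 at 0 min, 0.14 and 0.55 at 15 min, and -0.18 and -0.17 at 30 min. It read -0.49 and -0.48 at 60 min and -0.34 and -0.31 at 90 min. The arrays of the strains overlapped at 0 min, and at each later time both Hsf1-aa arrays lay below both WT-aa arrays.

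**Figure D1:**
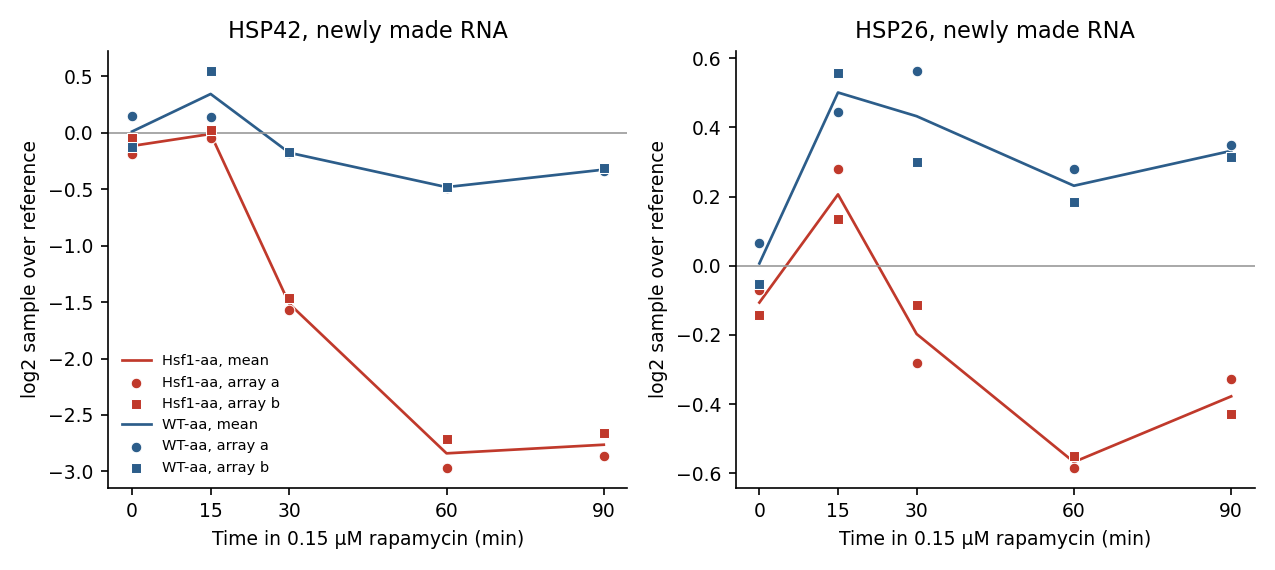
Log2 of sample over reference for HSP42 (left) and HSP26 (right) against minutes in 0.15 µM rapamycin, with circles for array a, squares for array b and lines through the means of 2 arrays. The vertical scales of the panels differ: HSP42 in Hsf1-aa reached -2.97, whereas HSP26 stayed between -0.58 and 0.56 on all slow arrays.

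The strain difference of HSP42, Hsf1-aa minus WT-aa, was -0.13 at 0 min (SE 0.12, adjusted p = 0.998) and -0.35 at 15 min (adjusted p = 0.428), neither of which passed the threshold of 0.05. The value at 15 min was -0.53 without WT-aa 15 min a and -0.18 without WT-aa 15 min b. It was -1.34 at 30 min, a 2.53-fold lower level (SE 0.12, adjusted p = 6.80e-05). When the same test used the 30 min arrays alone, the SE was 0.18 and the call was lost (adjusted p = 0.0524). The strain difference was -2.36 at 60 min, or 5.13-fold lower (adjusted p = 1.32e-07), and -2.44 at 90 min, or 5.42-fold lower (95% interval of the log2 difference -2.69 to -2.18, adjusted p = 5.09e-08). Only a small share of the array was called in the tests of the strain difference. Of the 6353 features tested, 0.189% were called lower at 15 min, 0.724% at 30 min, 1.02% at 60 min and 1.02% at 90 min. A feature that was not called may still have moved. In the same tests 617, 869, 1026 and 252 features had an unadjusted p under 0.05, in either direction, at 15, 30, 60 and 90 min. Counting from the lowest strain difference, HSP42 was number 3 at 30 min, number 2 at 60 min and number 7 at 90 min. The drop appeared in each dye orientation, with strain differences at 60 min of -2.48 between the a arrays and -2.24 between the b arrays.

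The difference also grew beyond what it was before rapamycin. The change of the HSP42 strain difference from 0 min was -0.23 at 15 min (adjusted p = 0.762), -1.21 at 30 min (adjusted p = 0.0115), -2.23 at 60 min (adjusted p = 1.01e-05) and -2.31 at 90 min (adjusted p = 5.08e-06). In this test 0.0944% of features were called as changed downward at 30 min, 0.535% at 60 min and 0.614% at 90 min. The steps of the strain difference between neighbouring times, -0.98 from 15 to 30 min, -1.02 from 30 to 60 min and -0.08 from 60 to 90 min, did not pass by themselves (adjusted p = 0.178, 0.0506 and 0.867). The call for the change by 30 min was lost when any of 4 arrays was left out, namely Hsf1-aa 0 min a or b, Hsf1-aa 30 min a or WT-aa 30 min a, with adjusted p between 0.0536 and 0.0846 and changes between -1.23 and -1.16.

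Within Hsf1-aa, HSP42 fell by 1.51 between 15 and 30 min (adjusted p = 4.35e-05) and fell by 1.33 between 30 and 60 min (adjusted p = 9.48e-05), steps in which 0.535% and 0.346% of features were called lower. Between 60 and 90 min it moved by 0.08, which did not pass the test. Against 0 min it was 6.27-fold lower at 90 min (adjusted p = 1.93e-08), and 0.535%, 1.57% and 1.94% of features were called lower than at 0 min at 30, 60 and 90 min. Within WT-aa the single-time differences from 0 min were 0.33, -0.19, -0.49 and -0.34 at 15, 30, 60 and 90 min, with adjusted p between 0.146 and 0.391. A test over the 4 later times together did call HSP42 in WT-aa (adjusted p = 0.0150), as it did 1.34% of features (4.69% in Hsf1-aa, where HSP42 had adjusted p = 7.04e-09 and HSP26 0.00117; HSP26 in WT-aa did not pass, adjusted p = 0.0626), so its level in the control strain varied over time.

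Over the 10 slow group means, HSP42 was lowest in Hsf1-aa at 60 min (-2.84 ± 0.18, SD, n = 2) and 90 min (-2.76 ± 0.14), whose arrays overlapped, followed by Hsf1-aa at 30 min (-1.51 ± 0.08). WT-aa at 60, 90 and 30 min came next (-0.48 ± 0.01, -0.33 ± 0.02 and -0.18 ± 0.00), with no overlap among these groups. The arrays of WT-aa at 30 min overlapped those of Hsf1-aa at 0 min (-0.12 ± 0.09). Those of Hsf1-aa at 15 min (-0.01 ± 0.05) overlapped WT-aa at 0 min (0.01 ± 0.19), which in turn overlapped the highest group, WT-aa at 15 min (0.35 ± 0.29).

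**Figure D2:**
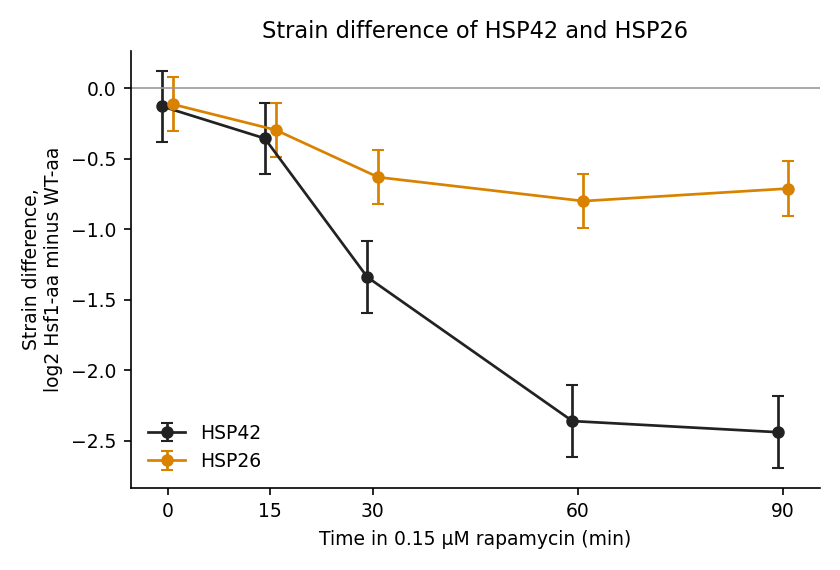
Strain difference, log2 of Hsf1-aa minus WT-aa, against minutes in 0.15 µM rapamycin for HSP42 (black) and HSP26 (orange), with the 95% interval of the limma fit over 20 arrays as bars. Both genes start near 0 and HSP42 reaches -2.44, while HSP26 remains between -0.63 and -0.80 from 30 min on.

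HSP26 moved in another pattern. In the control strain it read higher after rapamycin was added, with a log2 change of 0.49 at 15 min (SE 0.088, adjusted p = 0.0461, 0.189% of features called higher). That call was lost in 22 of 33 alternatives, and the test over all 4 later times did not pass in WT-aa. In Hsf1-aa, HSP26 at 90 min stood at -0.27 against 0 min, which did not pass (adjusted p = 0.143). Its strain difference passed the test from 30 min and was at most 1.74-fold. At 60 min Hsf1-aa held 57.5% of the HSP26 level of WT-aa (95% interval 50.3 to 65.6%).

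In WT-aa, HSP26 read 0.07 and -0.05 at 0 min, 0.44 and 0.56 at 15 min, and 0.56 and 0.30 at 30 min. It read 0.28 and 0.18 at 60 min, and 0.35 and 0.31 at 90 min. All WT-aa arrays taken in rapamycin lay above both untreated WT-aa arrays, which was true of 2.38% of all features. In Hsf1-aa, HSP26 read -0.07 and -0.14 at 0 min, 0.28 and 0.13 at 15 min, and -0.28 and -0.11 at 30 min. It read -0.58 and -0.55 at 60 min, and -0.33 and -0.43 at 90 min. The Hsf1-aa arrays lay below the WT-aa arrays at every time, also at 0 min, where the same was true of 10.8% of all features. At 15, 30, 60 and 90 min it was true of 13.5, 12.3, 20.1 and 9.73% of features, a background against which the lack of overlap of HSP26 or HSP42 says little by itself.

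Over the 10 group means, HSP26 was lowest in Hsf1-aa at 60 min (-0.57 ± 0.02, SD, n = 2), then in Hsf1-aa at 90 min (-0.38 ± 0.07), 30 min (-0.20 ± 0.12) and 0 min (-0.11 ± 0.05), of which the last pair overlapped. WT-aa at 0 min (0.01 ± 0.09) lay between these and Hsf1-aa at 15 min (0.21 ± 0.10), which overlapped WT-aa at 60 min (0.23 ± 0.07). The highest groups were WT-aa at 90, 30 and 15 min (0.33 ± 0.03, 0.43 ± 0.19 and 0.50 ± 0.08), each overlapping its neighbour.

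The strain difference of HSP26 was -0.11 at 0 min (SE 0.088, adjusted p = 0.998) and -0.29 at 15 min (adjusted p = 0.409). It was -0.63 at 30 min, 1.55-fold lower (adjusted p = 0.00242), -0.80 at 60 min, 1.74-fold lower (adjusted p = 1.61e-04), and -0.71 at 90 min, 1.64-fold lower (adjusted p = 4.22e-04). At 30 min the difference was -0.85 between the a arrays and -0.41 between the b arrays, and at 90 min it was -0.68 and -0.74. Counting from the lowest difference, HSP26 was number 32, 36 and 49 at 30, 60 and 90 min. These calls were lost, with values of -0.65, -0.79 and -0.69, when arrays were centred on the spiked control RNA in place of yeast genes, where the SE was 0.20. Those at 30 and 60 min were also lost when the test used only the arrays of that time (SE 0.19 and 0.089, adjusted p = 0.9999 and 0.0698).

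Relative to 0 min, the HSP26 strain difference changed by -0.69 by 60 min (adjusted p = 0.0225), and its changes of -0.52 by 30 min (adjusted p = 0.279) and -0.60 by 90 min (adjusted p = 0.0523) did not pass. The call at 60 min was lost without any of the 8 arrays of 0 and 60 min, with adjusted p between 0.0616 and 0.152, and without the dye term (adjusted p = 0.0700). Within Hsf1-aa, HSP26 was 0.31 above 0 min at 15 min (adjusted p = 0.119), fell by 0.46 below 0 min by 60 min (adjusted p = 0.0142) and stood at -0.27 at 90 min (adjusted p = 0.143). The call at 60 min was lost, with adjusted p between 0.0509 and 0.202, without any of the 4 Hsf1-aa arrays of 0 and 60 min. The WT-aa rise at 15 min was lost in 22 of 33 alternatives, among them 16 of the 20 in which 1 array was left out, where the change was 0.40 to 0.59. In WT-aa the later HSP26 values of 0.43, 0.22 and 0.33 above 0 min did not pass (adjusted p = 0.0877, 0.526 and 0.173).

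The measured strain difference of HSP42 was larger than that of HSP26. Averaged over 15 to 90 min, the strain difference of HSP42 minus that of HSP26 was -1.01, and it was below 0 in 8 of 8 pairs of arrays of the same time and dye (two-sided exact permutation test exchanging strain labels within pairs, p = 0.00781, the smallest it can give). The 8 pairs come from successive times of 1 strain per genotype, and the test counts each as a separate unit. The gap was -0.06 at 15 min, -0.71 at 30 min, -1.56 at 60 min and -1.73 at 90 min, against -0.01 at 0 min. Over the pairs taken in rapamycin it ran from -1.85 to -0.02, so it opened after 15 min. HSP26 had the fainter signal, at 4.05 to 9.21 times background, and the offset added before taking logs pulls weak ratios toward 0. With an offset of 10 in place of 50 the HSP26 strain difference at 60 min was -0.94 and the gap over 15 to 90 min was -0.96.

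The chaperone genes known as Hsf1 targets gave the frame for HSP42. Of the 17 measured genes of this list, 3 were lower in Hsf1-aa at 15 min, 11 at 30 min, 16 at 60 min and 17 at 90 min, and none was higher. Of all features, 0.189%, 0.724%, 1.02% and 1.02% were called lower at these times. The median strain difference of the list was -0.73, -1.54 and -2.12 at 30, 60 and 90 min, beside medians of all features between -0.01 and 0.00. HSP82, the inducible Hsp90, had the lowest value of the list at 90 min (-2.98, adjusted p = 5.09e-08), and HCH1, a regulator of Hsp90, had the highest (-1.08, adjusted p = 3.57e-06). HSP42 lay below the list median at 30, 60 and 90 min of the slow depletion, while HSP26 lay above it at each of these times. In the standard depletion, with 1 array per strain and no test, the list median was -1.95. HSP42 lay above it there, at -1.40. With an offset of 10 HSP42 read -1.78, and the list median was not recomputed with that offset. Between 60 and 90 min the list median moved from -1.54 to -2.12, and HSP42 from -2.36 to -2.44.

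**Figure D3:**
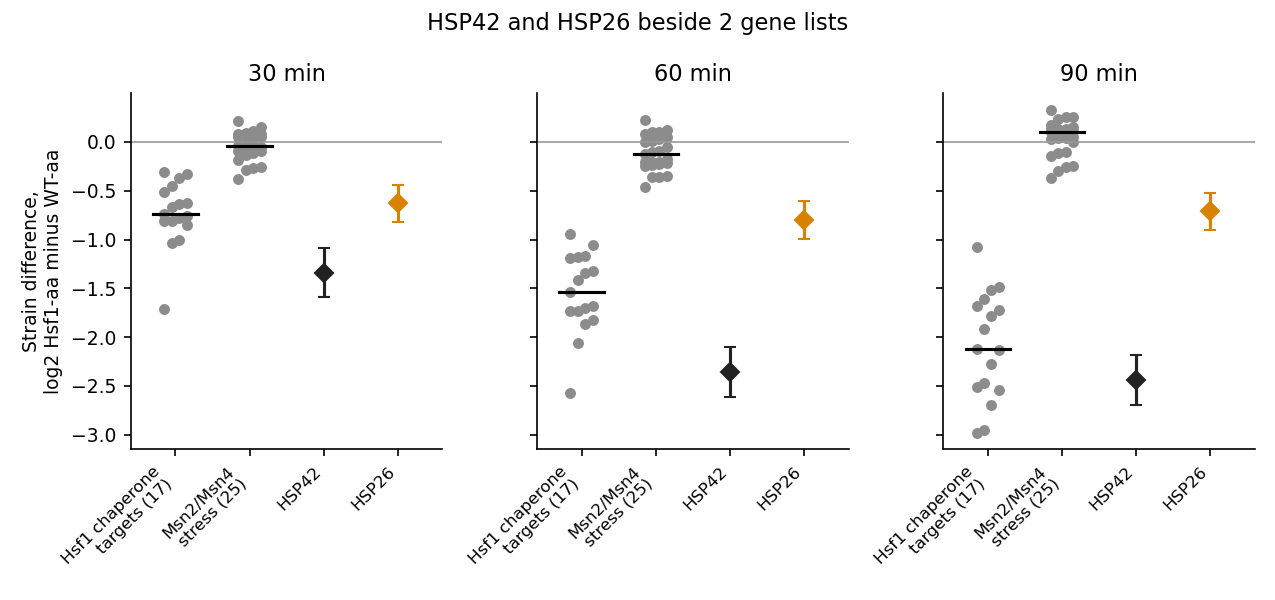
Strain difference, log2 of Hsf1-aa minus WT-aa, at 30, 60 and 90 min for 17 Hsf1 chaperone targets and 25 general stress genes (grey points, black line at the median) and for HSP42 and HSP26 (diamonds with the 95% interval). HSP26 lies between the lists at 60 and 90 min, at -0.80 and -0.71, where the list medians are -1.54 and -0.12, then -2.12 and 0.10.

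The general stress genes known as Msn2 and Msn4 targets gave the frame for HSP26. None of the 25 was called between the strains at any of the 5 times, with medians of -0.04, -0.12 and 0.10 at 30, 60 and 90 min. The lowest at 90 min was YGP1, a cell wall glycoprotein gene (-0.37, adjusted p = 0.707), and the highest was GPH1, the glycogen phosphorylase gene (0.33, adjusted p = 1.00). At 15 min against 0 min their medians were 0.46 in Hsf1-aa and 0.38 in WT-aa. In Hsf1-aa 12 of 25 were called higher, beside 0.645% of all features. In WT-aa 2 of 25 were called higher, beside 0.189% of all features. HSP26 stood at 0.31 and 0.49 in the same comparisons. HSP26 was called lower in Hsf1-aa from 30 min on, and none of the 25 genes was. Of all features, 0.724%, 1.02% and 1.02% were called lower at 30, 60 and 90 min. None of 25 is close to that share and says little by itself, and HSP26 was not tested against the list.

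The genes that act with small heat-shock proteins were followed in the same way, in lists that share genes such as HSP104 and BTN2. The counts in these lists stand beside 0.724%, 1.02% and 1.02% of all features called lower in Hsf1-aa at 30, 60 and 90 min. Of 9 measured genes for disaggregation and refolding (Hsp104, Hsp70 proteins and their helpers), 4, 7 and 8 were lower in Hsf1-aa at 30, 60 and 90 min. Their median at 90 min was -1.49, from SIS1, an essential Hsp40 gene (-2.55, adjusted p = 1.24e-09), to SSA3, an Hsp70 gene (0.01, adjusted p = 1.00). All 3 genes for sequestration and sorting of misfolded proteins were lower at 60 and 90 min. At 90 min BTN2, a sequestrase gene, was at -2.95 (adjusted p = 1.24e-09), and CUR1, which sends misfolded proteins to the nucleus, was at -2.47 (adjusted p = 5.09e-08). Of 9 other measured genes named HSP, 5, 6 and 6 were lower at 30, 60 and 90 min, and HSP31, a glyoxalase gene, was highest at 90 min (0.15, adjusted p = 1.00). HSP82, given above, was lowest. Of 7 stress transcription factor genes, 2 were lower at 30, 60 and 90 min. These were HSF1, the lowest of the list at 90 min, and RPN4, the activator of proteasome genes, which was at -0.97 at 90 min (adjusted p = 2.28e-06) and was picked out after its values were seen. MSN4 was highest, at 0.09 (adjusted p = 1.00).

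The profile of HSP42 over the 10 slow group means was most like that of BTN2, with Pearson r = 0.990 across 10 means. It was followed by SSC1, the mitochondrial Hsp70 gene (0.987), SSA4, a stress-induced Hsp70 gene (0.986), GPM2 (0.986) and FES1, which helps Hsp70 release its nucleotide (0.985). HSP26 had r = 0.856 with HSP42 and ranked 83 among 5292 other named genes. In the ranking for HSP26, HSP42 was number 28 of 5292. The profiles most like that of HSP26 were TMA10 (0.964), EDC2 (0.953), RTS3 (0.939), YGL258W-A (0.926) and PIB1 (0.923). TMA10, EDC2 and RTS3 were lower in Hsf1-aa at 60 min, with strain differences of -1.05, -0.61 and -1.47 (adjusted p = 0.0235, 3.71e-05 and 5.99e-06). YGL258W-A and PIB1 differed by -0.11 and -0.20 (adjusted p = 0.431 and 0.297). The means share the reference RNA, and no test was made of these correlations.

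None of the neighbouring genes that were tested was called at 30, 60 or 90 min. Of all features, 0.787%, 1.21% and 1.23% were called in either direction at these times, so the lack of calls among so few genes says little by itself. The neighbours ARG82 and YBR072C-A had no tested feature. Next to HSP42, SEC7 differed by -0.03 at 60 min (SE 0.064, adjusted p = 0.792) and SUP35 by 0.03 (SE 0.10, adjusted p = 0.861). YDR170W-A, between SEC7 and HSP42, had a large error and stood at 1.42 (SE 0.50, adjusted p = 0.272). Next to HSP26, YBR071W differed by -0.18 (SE 0.092, adjusted p = 0.327), RDH54 by -0.15 (SE 0.10, adjusted p = 0.411) and ALG14 by -0.36 (SE 0.14, adjusted p = 0.282).

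The standard depletion, with 1 array per strain and so no test, gave HSP42 at -2.17 on the Hsf1-aa array. The WT-aa array read -0.76, which left a strain difference of -1.40, or 2.65-fold lower in Hsf1-aa. It was number 15 from the lowest of 6353 features, whose differences had a median of 0.00 and an SD of 0.19. This SD is the spread over features and not the error of 1 gene. HSP26 read -1.86 on the Hsf1-aa array and -1.99 on the WT-aa array, a difference of 0.13. The sign of this HSP26 value turned with processing, to -0.036 with an offset of 10 and -0.062 with median centring. The reference of these arrays was RNA without 4tU, and its median signal was 173 and 297, so levels cannot be set against those of the slow arrays. At 30 min in the slow depletion the differences were -1.34 for HSP42 and -0.63 for HSP26. Doses, references and arrays per group all differ between the depletions, and HSP26 was only 3.64 and 3.53 times above background in the sample channel of the standard arrays.

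**Figure D4:**
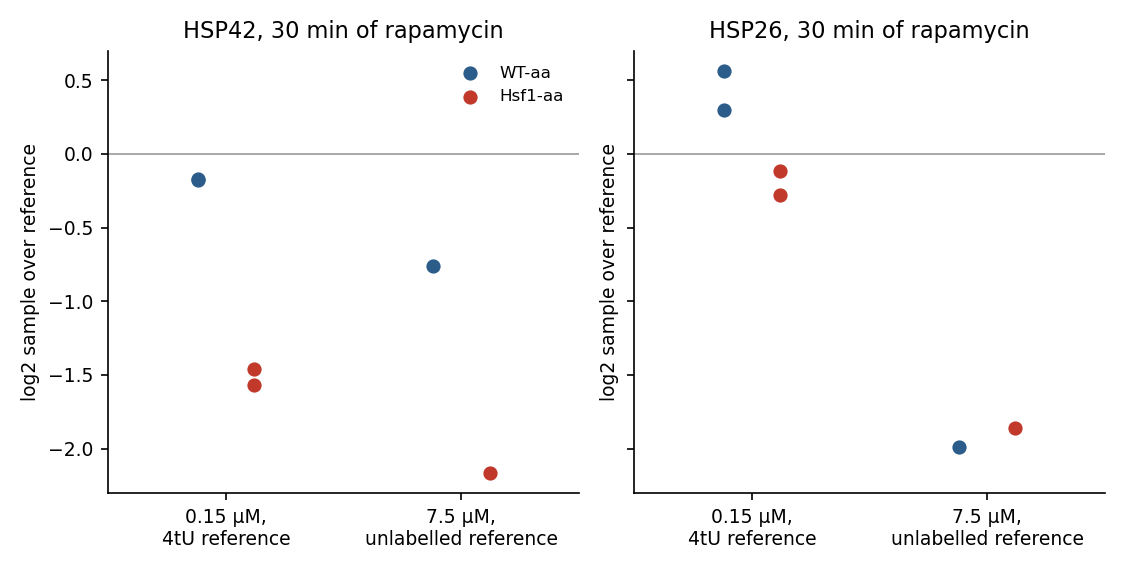
Log2 of sample over reference for HSP42 (left) and HSP26 (right) on each array after 30 min in 0.15 µM rapamycin (2 arrays per strain, which coincide for HSP42 in WT-aa) and in 7.5 µM rapamycin (1 array per strain). HSP42 is lower in Hsf1-aa at both doses, and HSP26 is lower in Hsf1-aa at 0.15 µM but reads -1.86 (Hsf1-aa) and -1.99 (WT-aa) at 7.5 µM.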

How the data were processed

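Newly made 4tU RNA was hybridised with a reference to 22 two-colour arrays. The deposited scanner files hold mean and background intensity per spot on a linear scale, not normalized, per the file headers; the deposited value table of log2 ratios by the authors served as an alternative. The table follows the recomputed log2 of Cy5 over Cy3 with r of 0.631 to 0.971 per array and column medians of -0.00704 to 0.0224. How it was normalized stays unknown here. Intensities were corrected with normexp (offset 50), normalized by loess within arrays with control spots at weight 0, and averaged over 2 spots. Ratios of arrays with the sample in Cy3 were negated. A feature was kept if a spot exceeded background by 2 SD on at least 2 slow arrays (6353 of 6373). limma 3.58.1 (R 4.3.3) fitted 20 slow arrays with 10 groups and a dye term (9 residual degrees of freedom), with Benjamini-Hochberg adjustment over all features and a threshold of 0.05. The dye term is also the replicate letter. Symbols came from the array annotation, 58 of them updated through RefSeq. The scripts were tested on simulated data.

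HSP42, HSP26 and the gene lists were chosen with earlier results of these data known. From each list the lowest and highest gene at 90 min is named, with RPN4 in addition, and for each member the 5 genes of highest r. SSA2, HSP32 and HSP33 had no tested feature. Probe sequences and probe coordinates were not used here, and neighbouring genes were found from RefSeq gene positions.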

Additional observations from a re-analysis of the deposited data

Results flagged for a closer look

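4 changes of the strain difference from its value at 0 min passed the test of the difference itself, which compares the time courses of the strains. For HSP42 these were the changes of -1.21 by 30 min, -2.23 by 60 min and -2.31 by 90 min, of which the one by 30 min was lost in 8 of 33 alternatives. For HSP26 it was the change of -0.69 by 60 min, which was lost in 12 of 33 alternatives. No group held enough arrays for a check of single outlying arrays.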

How the results depend on the processing

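The permutation result for HSP42 against HSP26 stayed at -1.08 to -0.95 in 13 other settings and at -1.16 to -0.90 with 1 array left out, with exact p at most 0.0156. The HSP42 calls at 60 and 90 min kept their side of the threshold in all 33 alternatives, both as strain differences and as changes from 0 min. The replicate letter is also the dye orientation, so the fit with no replicate block is the fit without the dye term. Same-letter arrays of the strains deviated together at 0, 15, 60 and 90 min (r = 0.481 to 0.660 across features) but not at 30 min (-0.399). The limma fit did not take the letters as pairs of cultures, and what such pairing would change was not tested. The permutation test did exchange strain labels between arrays of the same time and letter. Every group is limited by its 2 arrays. HSP26 had the fainter signal, and the residual SD of the fit was 0.090 for HSP26 and 0.128 for HSP42. The cause was not tested for any value below that moved.

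With 1 array left out, the HSP42 strain difference at 0 min ran from -0.33 to 0.075, and its change from 0 to 30 min from -1.41 to -1.01. Its uncalled value at 15 min ran from -0.53 to -0.18 (without WT-aa 15 min a or b) and the change by 15 min from -0.43 to -0.02 (without WT-aa 0 min a or b). The uncalled HSP26 values ran from -0.15 to -0.08 at 0 min, from -0.39 to -0.20 at 15 min and, for the change by 15 min, from -0.27 to -0.09. The HSP26 change of the strain difference ran from -0.64 to -0.39 by 30 min, from -0.73 to -0.64 by 60 min and from -0.63 to -0.56 by 90 min. It gained a call at 30 min without Hsf1-aa 30 min b (-0.64), and at 90 min without any of the 4 arrays of 30 min, with its value still -0.60. Within Hsf1-aa, HSP26 ran from -0.21 to 0.031 at 30 min, the sign turning without Hsf1-aa 30 min a, and from -0.51 to -0.41 at 60 min. Within WT-aa, HSP42 ran from 0.13 to 0.54 at 15 min and from -0.54 to -0.13 at 90 min, the ends of both ranges coming without WT-aa 0 min b or a. It ran from -0.39 to 0.015 at 30 min and from -0.70 to -0.29 at 60 min, where it gained a call at -0.70 without WT-aa 0 min b. The signs at 0.075 and 0.015 for HSP42 both came from leaving out WT-aa 0 min a. Within WT-aa, HSP26 ran from 0.40 to 0.59 at 15 min and from 0.31 to 0.54 at 30 min.

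Centring on the spiked control RNA moved the median of all features into the range -0.30 to 0.23 in the slow comparisons, and to 0.84 in the standard one. Under it HSP26 lost its strain-difference calls (-0.65, -0.79 and -0.69 at 30, 60 and 90 min), its change by 60 min (-0.52), its fall in Hsf1-aa by 60 min (-0.50) and its rise in WT-aa at 15 min (0.23), and the uncalled HSP26 change by 15 min turned to 0.022. HSP42 lost its change by 30 min (-1.15), and its uncalled changes at 15 min turned to -0.026 in Hsf1-aa and -0.015 in WT-aa. On the standard arrays the differences were -0.79 for HSP42 and 0.73 for HSP26, or -1.63 and -0.11 relative to the median of all features. Those standard differences were -1.78 and -0.036 with an offset of 10, -1.58 and -0.062 with median centring, and 0.26 for HSP26 in the authors' value table.

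With only the arrays of the times compared, calls were lost for HSP42 at 30 min (-1.34) and for HSP26 at 30 and 60 min (-0.63 and -0.80), and for the HSP42 change by 30 min (-1.21). Calls were gained there, at unchanged values, for the HSP26 changes by 90 min in the strain difference (-0.60), within Hsf1-aa (-0.27) and within WT-aa (0.33), and for HSP42 within WT-aa (-0.34). The HSP42 change by 30 min also lost its call with scale normalization (-1.31) and with array weights (-1.21). Array weights gained calls for HSP26 by 90 min in the strain difference (-0.60) and in WT-aa (0.33) and by 15 min in Hsf1-aa (0.31). The HSP26 change by 90 min gained a call with an offset of 10 (-0.68), scale normalization (-0.53) and the first spot alone (-0.62). The HSP26 change by 60 min lost its call with median centring (-0.66), no replicate block (-0.69) and the second spot alone (-0.66), and its fall in Hsf1-aa by 60 min with median centring (-0.42). The HSP26 rise in WT-aa at 15 min lost its call with no background correction (0.49), median centring (0.57), scale normalization (0.44), no replicate block (0.49) and the second spot (0.48). The first spot alone gained a call for HSP42 in WT-aa by 60 min (-0.57).

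The number of features called in either direction moved more. For the strain difference at 0 min it was 8, against 3 with median centring, 2 with spiked RNA, 4 with no replicate block or a robust trend, 5 with the second spot, and 4 to 8 with 1 array left out. At 15 min it was 14, against 6, 2, 4 (scale normalization), 4 (no replicate block), 22 (array weights), 7 (robust trend), 2 (arrays of that time) and 4 to 16 with 1 array left out. At 30 min it was 50, against 5 with spiked RNA, 27 with no replicate block, 19 with array weights, 3 with the arrays of that time, and 32 to 940 with 1 array left out, the highest without Hsf1-aa 30 min b. At 60 min it was 77, against 25 with spiked RNA, 47 with no replicate block, 23 with the arrays of that time, and 44 to 143 with 1 array left out. At 90 min it was 78, against 24 with spiked RNA, and 58 to 81 with 1 array left out. For the change by 15 min it was 0 (limma; 232 features at an unadjusted p under 0.05) and 0 to 1 with 1 array left out. For the change by 30 min it was 7, against 0 with spiked RNA or only the arrays compared, 3 with scale normalization or array weights, 18 in the authors' value table, 4 with no replicate block, a robust trend or the second spot, and 2 to 566 with 1 array left out. For the change by 60 min it was 42, against 6 with spiked RNA, 23 with scale normalization, 19 with no replicate block, 70 with array weights, and 24 to 62 with 1 array left out. For the change by 90 min it was 48, against 13 with spiked RNA, 28 with no replicate block, and 32 to 48 with 1 array left out. For the change within Hsf1-aa at 15, 30, 60 and 90 min the counts were 75, 44, 126 and 171, against 3 to 118, 18 to 47, 66 to 222 and 92 to 326 with 1 array left out, and 0 to 237, 3 to 62, 24 to 1039 and 34 to 849 in the other settings. Within WT-aa they were 15, 12, 25 and 62, against 2 to 28, 7 to 1393, 7 to 28 and 33 to 74 with 1 array left out, and 0 to 1847, 0 to 24, 0 to 43 and 1 to 261 in the other settings.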
